A study of Mus musculus with 3 samples.

Results

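The Runx and Ets genes treated here encode 8 transcription factor subunits of blood cells. They are the Runt domain factors Runx1, Runx2 and Runx3, their shared partner Cbfb, and the ETS domain factors Ets1, Ets2, Fli1 and Elf1. All probe sets of the value table that were annotated to 1 of these symbols alone were taken, which gave 20 of 45037 probe sets and 7 of 18193 genes. No probe set of the table was annotated to Runx2 alone, and Runx2 is not analysed here. The members were compared over 3 populations of C57BL/6 mouse cells, each on 1 array. The first was splenic CD4 T cells and the second splenic B220 B cells, both from mice aged 6 to 8 weeks and sorted with magnetic beads to a stated purity above 98%. The third was embryonic stem (ES) cells of the B6N-22 line, 1 line grown on mitomycin-treated embryonic fibroblasts with leukemia inhibitory factor. No population was treated before RNA isolation, per the labels. The sources used here do not give how many mice the lymphocytes came from, or whether feeder cells were removed from the ES cells.

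Runt domain proteins bind DNA as heterodimers with Cbfb, which does not touch DNA itself and raises the affinity of its partner. ETS factors share a winged helix domain that reads a GGAA core. Runx1 and Ets1 can bind neighbouring sites together, as at T cell receptor enhancers. Both families are known for their part in the formation of blood stem cells and in the later choice and upkeep of lymphocyte lineages.

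Start regions of the Runx genes are shown because Runx1 and Runx3 were higher in both lymphocyte populations and each gene has a distal and a proximal start. The sequences are the 250 bases upstream of each start in RefSeq's table for GRCm38.p6, 5′ to 3′ on the strand of the gene. The distal Runx3 window is chr4:135120395-135120644 and the proximal one chr4:135152295-135152544, both on the plus strand. The distal Runx1 window is chr16:92826075-92826324 and the proximal one chr16:92697330-92697579, both on the minus strand. Capitals mark the Runx core words TGTGGT and TGCGGT and the Ets core words CCGGAA and CAGGAA, searched on both strands. The Runx words do not overlap the Ets words in these windows.
Runx3 distal: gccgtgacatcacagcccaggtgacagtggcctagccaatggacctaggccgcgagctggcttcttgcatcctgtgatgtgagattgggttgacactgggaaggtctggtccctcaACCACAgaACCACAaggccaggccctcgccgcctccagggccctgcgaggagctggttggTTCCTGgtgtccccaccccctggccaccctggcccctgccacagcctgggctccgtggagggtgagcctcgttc
Runx3 proximal: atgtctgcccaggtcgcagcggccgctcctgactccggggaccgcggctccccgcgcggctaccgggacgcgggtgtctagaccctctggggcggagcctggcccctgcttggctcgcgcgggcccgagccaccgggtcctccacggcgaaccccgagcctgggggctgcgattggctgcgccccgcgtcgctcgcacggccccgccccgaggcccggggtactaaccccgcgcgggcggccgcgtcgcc
Runx1 distal: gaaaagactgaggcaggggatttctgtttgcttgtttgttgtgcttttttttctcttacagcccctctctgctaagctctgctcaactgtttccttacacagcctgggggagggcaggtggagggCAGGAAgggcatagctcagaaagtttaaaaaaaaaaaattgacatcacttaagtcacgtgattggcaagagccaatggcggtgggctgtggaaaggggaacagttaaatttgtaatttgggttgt
Runx1 proximal: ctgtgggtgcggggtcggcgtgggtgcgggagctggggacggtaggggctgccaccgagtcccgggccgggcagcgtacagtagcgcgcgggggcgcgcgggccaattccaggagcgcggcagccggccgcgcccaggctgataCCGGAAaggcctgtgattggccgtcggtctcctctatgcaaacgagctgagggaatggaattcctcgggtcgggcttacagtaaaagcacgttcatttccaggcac

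The distal Runx3 window held TGTGGT at 2 places, both as ACCACA on the printed strand, and CAGGAA at 1 place. Of all 32851 windows of this length in the table, 14.0% held TGTGGT and 1.27% held it more than once. The distal Runx1 window held CAGGAA and the proximal one CCGGAA, words found in 25.7% and 12.0% of all windows. TGCGGT was in none of these 4 windows and in 5.10% of all windows. The distal windows had 8 CG pairs in Runx3 and 2 in Runx1, and the proximal ones 38 and 27, against a median of 6 over all windows. The table held 9 windows for 6 of the genes, of which 2 held a Runx word and 3 an Ets word, where 18.6% and 35.1% of all windows did. Runx2, whose expression is not analysed here, has 1 of the 9 windows, and 1 of the 2 windows with a Runx word is its own. Ets1 and Fli1 had no entry. A match of letters is a description and not a bound site, and the array did not measure which start was used.

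The arrays gave 1 intensity per probe set on a linear scale, with column medians of 97 in T cells, 101.8 in B cells and 88.8 in ES cells. A signal above 95, the 50th percentile of all values, was called detected, and this level replaced any lower value ahead of the log2. A fold against an undetected array is a lower bound, written "at least". Each population had a single array, so there is no replicate error, no test, and no replicate check of any difference. Where a gene had several probe sets, their spread covers probe effects only. In all genes with at least 2 detected probe sets, the 2 brightest disagreed by a median of 0.54 on the log2 scale for T cells minus ES cells, 0.50 for B cells minus ES cells and 0.28 for T cells minus B cells.

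The labelled cell types were checked on marker lists. All 8 T cell markers were detected in T cells, with a summed signal of 77782 against 1224 in B cells and 1484 in ES cells. Of the 8, 7 were detected in B cells and 2 in ES cells. All 7 B cell markers with a probe set were detected in B cells, with a sum of 100618, against 5017 in T cells and 502 in ES cells. Of the 7, 6 were detected in T cells and 1 in ES cells. All 7 ES cell markers were detected in ES cells, with a sum of 100033, and 0 of 7 in T cells or B cells. Markers of other cell types were detected as well. Of 9 macrophage markers, 9 were detected in T cells, 9 in B cells and 7 in ES cells, with sums of 60646, 24893 and 3981. Of 9 fibroblast markers, 1 was detected in T cells, 2 in B cells and all 9 in ES cells, with sums of 474, 592 and 65648. Of 7 neutrophil markers, 5 were detected in T cells, 5 in B cells and 1 in ES cells, with sums of 13963, 7020 and 281, and S100a8 alone had 8945 in T cells and 3966 in B cells. Of 6 natural killer cell markers, 5, 6 and 1 were detected in the same order, with sums of 5058, 3023 and 497. Of 5 dendritic cell markers, 4, 4 and 0 were detected, with sums of 2229, 919 and 231. Both CD8 chain genes were detected in T cells and B cells but not in ES cells, with sums of 861, 359 and 82.9. Endothelial markers summed to 1197 in T cells, 1544 in B cells and 656 in ES cells, and erythroid markers to 458, 338 and 165. The part of these cells in the differences given next was not tested. No marker of any list was at 0 on an array. In bulk samples, fewer cells of a type and less RNA per cell cannot be told apart.

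**Figure D1:**
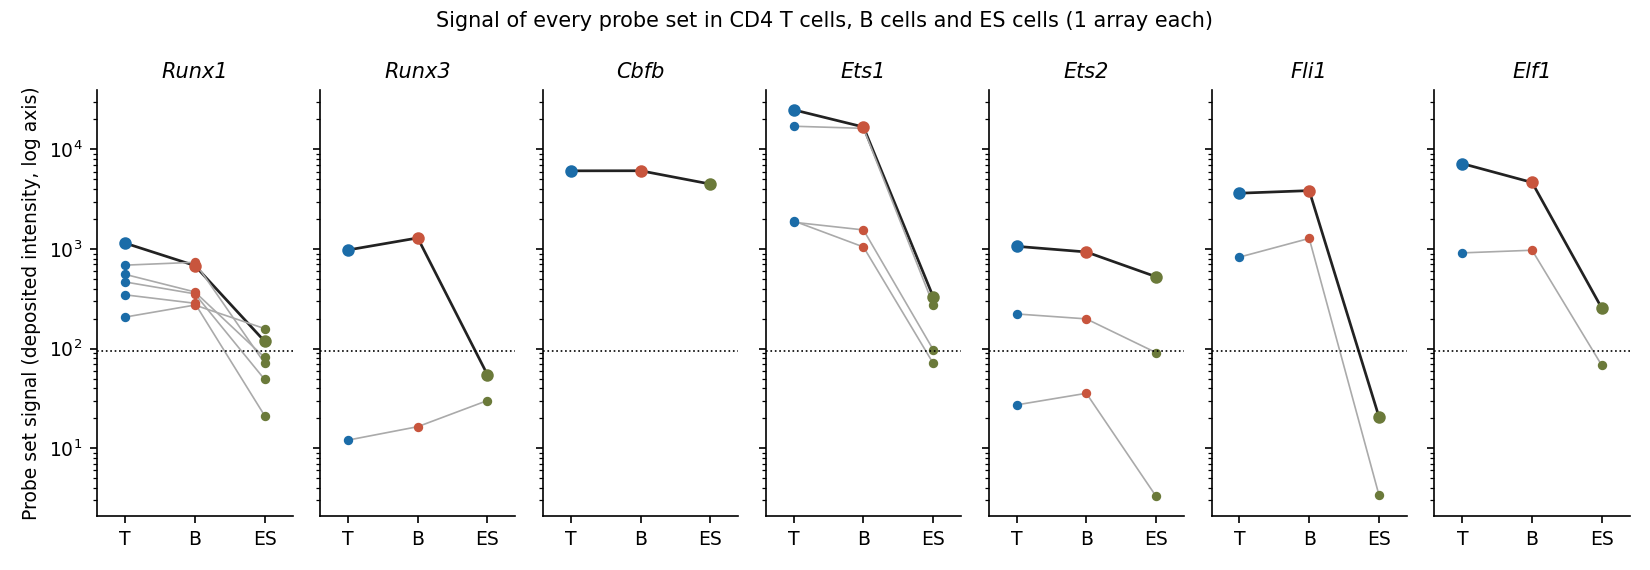
Deposited signal of each of the 20 probe sets on a log axis, with 1 panel per gene and T cells, B cells and ES cells from left to right. The black line joins the probe set that stands for the gene, grey lines the others, and the dotted line is the detection level of 95. The lines of Ets1, Fli1 and Elf1 drop steeply at ES cells, and that of Cbfb is nearly level.

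The question of the first 2 comparisons was which of these factors separated T cells and B cells from ES cells. Runx1, Runx3, Ets1, Fli1 and Elf1 were at least 4-fold higher in both lymphocyte populations. Ets2 and Cbfb differed by less in both. In T cells against ES cells 5 of the 7 members were counted as at least 4-fold higher and 0 lower, where 10.8% of 12325 measured genes were counted higher and 10.2% lower. In B cells against ES cells the count was also 5 of 7 higher and 0 lower, against backgrounds of 9.85% and 10.3% of 12463 genes. Both comparisons use the same ES cell array, so the second count is not independent of the first. Runx3 and Fli1 were undetected in ES cells by the probe sets that stand for them, so in both counts they could only be higher. The members were picked as lymphocyte factors, and the counts describe 3 arrays.

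Among the DNA-binding Runt factors, Runx1 is needed for the first blood stem cells and for T cell development. Its representative probe set, 1422864_at, had signals of 1148 in T cells, 683 in B cells and 119 in ES cells. T cells were thus highest and ES cells just above the detection level. The difference from ES cells was 9.67-fold in T cells and 5.76-fold in B cells. The 6 Runx1 probe sets differed in size of difference. Of the 6, 4 were undetected in ES cells, so that by these the lymphocytes could only be higher. In T cells the log2 differences ran between 0.38 and 3.27 with an SD of 1.01 over probe sets, and 4 of the 6 reached 4-fold. In B cells they ran between 0.78 and 2.96 with an SD of 0.75, and 2 of the 6 reached 4-fold. The smallest differences came from 1452530_a_at, with 208 in T cells, 274 in B cells and 159 in ES cells. By this probe set the 3 populations lay close together, and B cells were highest. The mean log2 difference over the 6 probe sets was 2.21 in T cells and 1.95 in B cells, the second under 4-fold, and a detection level at the 65th percentile gave 2.23 and 1.48.

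Runx3 is known for silencing Cd4 and for its part in cytotoxic T cells. Probe set 1440275_at had signals of 979 in T cells, 1293 in B cells and 54.7 in ES cells. Both lymphocyte values were far above the detection level and the ES cell value was below it. Relative to ES cells, Runx3 was higher by at least 10.3-fold in T cells and 13.6-fold in B cells. The other Runx3 probe set, 1421467_at, gave 12.1 in T cells, 16.5 in B cells and 30.2 in ES cells. It was undetected on all 3 arrays, so the Runx3 result rests on 1 probe set, and the mean log2 difference over both was 1.68 in T cells and 1.88 in B cells.

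Cbfb, the common partner of the Runt factors, was measured by 1 probe set. Its signal was 6097 in T cells, 6108 in B cells and 4491 in ES cells. The gene was clearly detected on all 3 arrays and varied little. The difference from ES cells was 1.36-fold in both T cells and B cells, or 0.44 on the log2 scale, below the median disagreement between probe sets. After scaling to the 75th percentile, which moved the median of all genes by -0.31 in T cells and -0.30 in B cells, the Cbfb differences were 0.06 and 0.10. After quantile normalization they were 0.67 in T cells and 0.70 in B cells, above that median disagreement of 0.54 and 0.50, so the size of the difference depends on the scaling.

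Among the ETS factors, Ets1 supports T cell survival and restrains the passage of B cells to plasma cells. Its brightest probe set, 1452163_at, had signals of 24961 in T cells, 16785 in B cells and 331 in ES cells. A second bright one, 1426725_s_at, gave 17086 in T cells, 16271 in B cells and 276 in ES cells. Both put ES cells far below the lymphocytes. By the first, Ets1 exceeded its ES cell level 75.3-fold in T cells and 50.6-fold in B cells, and by the second 61.8-fold and 58.9-fold. Of measured genes, 99.6% had a smaller difference than Ets1 in T cells and 99.1% in B cells.

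The other 2 Ets1 probe sets were dimmer and gave smaller differences. Probe set 1422027_a_at had 1858 in T cells, 1556 in B cells and 97.8 in ES cells. Probe set 1422028_a_at had 1915 in T cells, 1049 in B cells and 71.3 in ES cells. Their ES cell signals lay just above and below the detection level, which limits the fold that can be read. The 4 log2 differences ran between 4.25 and 6.23 in T cells with an SD of 1.05, and between 3.47 and 5.88 in B cells with an SD of 1.20.

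Fli1, a factor of megakaryocyte and vessel development, was not detected in ES cells. Probe set 1433512_at had signals of 3634 in T cells, 3860 in B cells and 20.7 in ES cells. The other, 1422024_at, had 830 in T cells, 1279 in B cells and 3.4 in ES cells. Both showed clear signal in both lymphocyte populations alone. By the first, Fli1 exceeded its ES cell level by at least 38.3-fold in T cells and 40.6-fold in B cells, and by the second at least 8.74-fold and 13.5-fold. A lower bound grows with the brightness of its probe set, so these pairs of values need not disagree. Fli1 is also a platelet lineage gene, and of 5 platelet markers 4 were detected in T cells, 5 in B cells and 2 in ES cells, with sums of 961, 1634 and 444. The part of such cells in the Fli1 signal was not tested.

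Elf1, which is prominent in lymphoid cells and binds regulatory DNA of the interleukin-2 receptor alpha gene, was measured by 2 probe sets. Probe set 1417540_at had signals of 7202 in T cells, 4660 in B cells and 255 in ES cells. Probe set 1439319_at had 915 in T cells, 973 in B cells and 67.9 in ES cells. Elf1 was thus detected in ES cells by the brighter one only. The difference was 28.3-fold in T cells and 18.3-fold in B cells by the brighter probe set, and at least 9.64-fold and 10.2-fold by the other.

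Ets2 is a close relative of Ets1, broadly expressed and known to act downstream of Ras signalling. It did not reach 4-fold in any comparison. Probe set 1416268_at had signals of 1065 in T cells, 935 in B cells and 527 in ES cells. The dimmer 1447685_x_at had 223 in T cells, 199 in B cells and 91.3 in ES cells, and 1437809_x_at was undetected on all 3 arrays. Ets2 was 2.02-fold higher in T cells and 1.77-fold higher in B cells by the first, and at least 2.35-fold and 2.10-fold by the second. Among measured genes, 22.7% exceeded ES cells at least 2-fold in T cells and 21.1% in B cells, so a difference of this size is common. The part of the feeder fibroblasts in the ES cell signals of Ets2, Runx1, Ets1 and Elf1 was not tested.

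**Figure D2:**
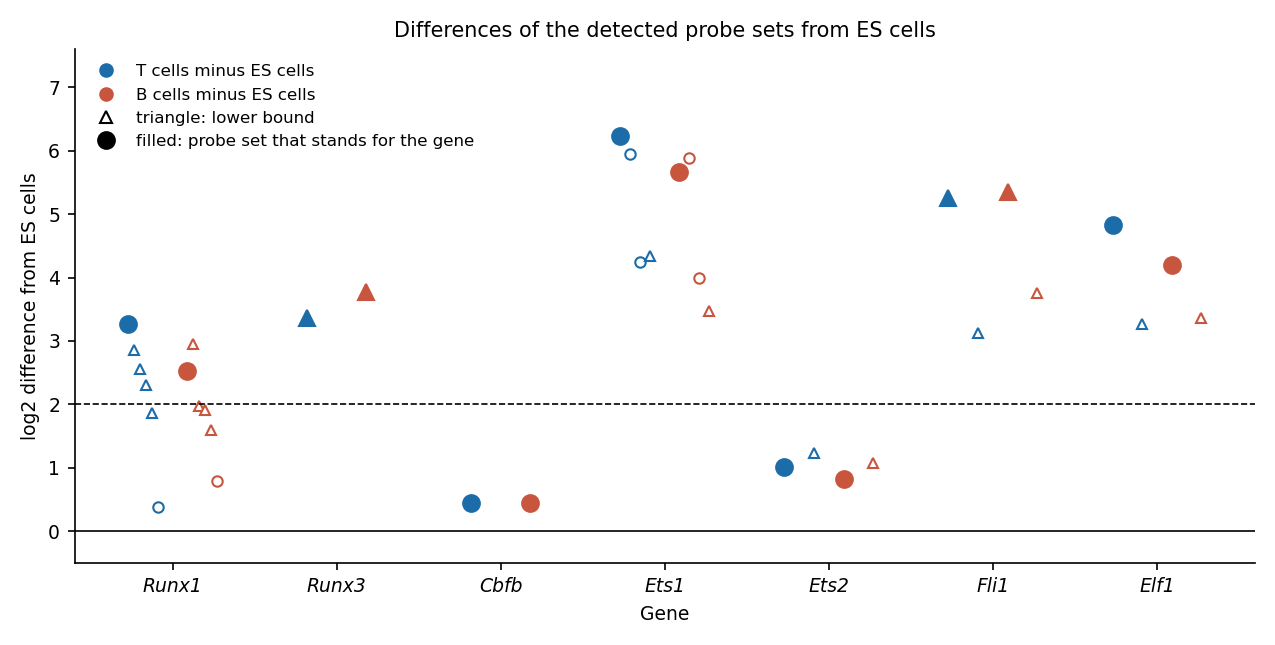
Difference from ES cells on the log2 scale for the 18 detected probe sets, with T cells in blue and B cells in red for each gene. Filled symbols are the probe sets that stand for the genes, triangles are lower bounds, and the dashed line is 4-fold. Ets1, Fli1 and Elf1 lie above the dashed line by every probe set, Runx1 lies on both sides of it, and Cbfb and Ets2 lie below it.

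Of the 20 probe sets of the members, 8 were detected on all 3 arrays, 10 in T cells and B cells but not in ES cells, and 2 on none. Each of the 10 could differ from ES cells in 1 direction only, so the counts that follow leave them out. The probe sets that stand for Runx3 and Fli1 are among the 10, and the member counts above include both genes. The 8 were all brighter in each lymphocyte population than in ES cells, and 5 of them reached 4-fold in each. Of 14960 probe sets with 1 gene symbol that were detected on all 3 arrays, 51.8% were brighter in T cells than in ES cells and 8.02% by 4-fold, and for B cells the shares were 52.5% and 8.07%. The 8 share 3 arrays and several belong to the same gene.

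The third comparison asked whether the same factors separated T cells from B cells. Of the 7 members, 0 reached 4-fold and 0 reached 2-fold in either direction. Of 11194 measured genes, 2.49% were higher in T cells by at least 4-fold and 8.89% by at least 2-fold, 1.85% and 6.32% were lower by as much, and 84.8% lay within 2-fold. Runx1 was 1.68-fold higher in T cells, Elf1 1.55-fold and Ets1 1.49-fold. Ets2 was 1.14-fold higher. Runx3 was 1.32-fold lower in T cells, and Fli1 1.06-fold lower, and the log2 difference of Cbfb was -0.0025.

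The probe sets of a gene did not always order T cells and B cells alike. All 4 Ets1 probe sets were higher in T cells, with log2 differences between 0.07 and 0.87. Both detected Ets2 probe sets were also higher in T cells, and both Fli1 probe sets were lower, at -0.09 and -0.62. Runx1 was higher in T cells by 4 of 6 probe sets, between -0.40 and 0.75, and Elf1 by 1 of 2, at 0.63 and -0.09. For Runx1 and Elf1 the order of T cells and B cells therefore depends on the probe set. Over all 18 detected probe sets, 11 were higher and 7 lower in T cells, between -0.62 and 0.87. For all genes with 2 or more detected probe sets, the 90th percentile of the disagreement between the brightest pair was 0.86. The summed signal of macrophage markers was 60646 in T cells, against 24893 in B cells. Their part in these differences was not tested.

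**Figure D3:**
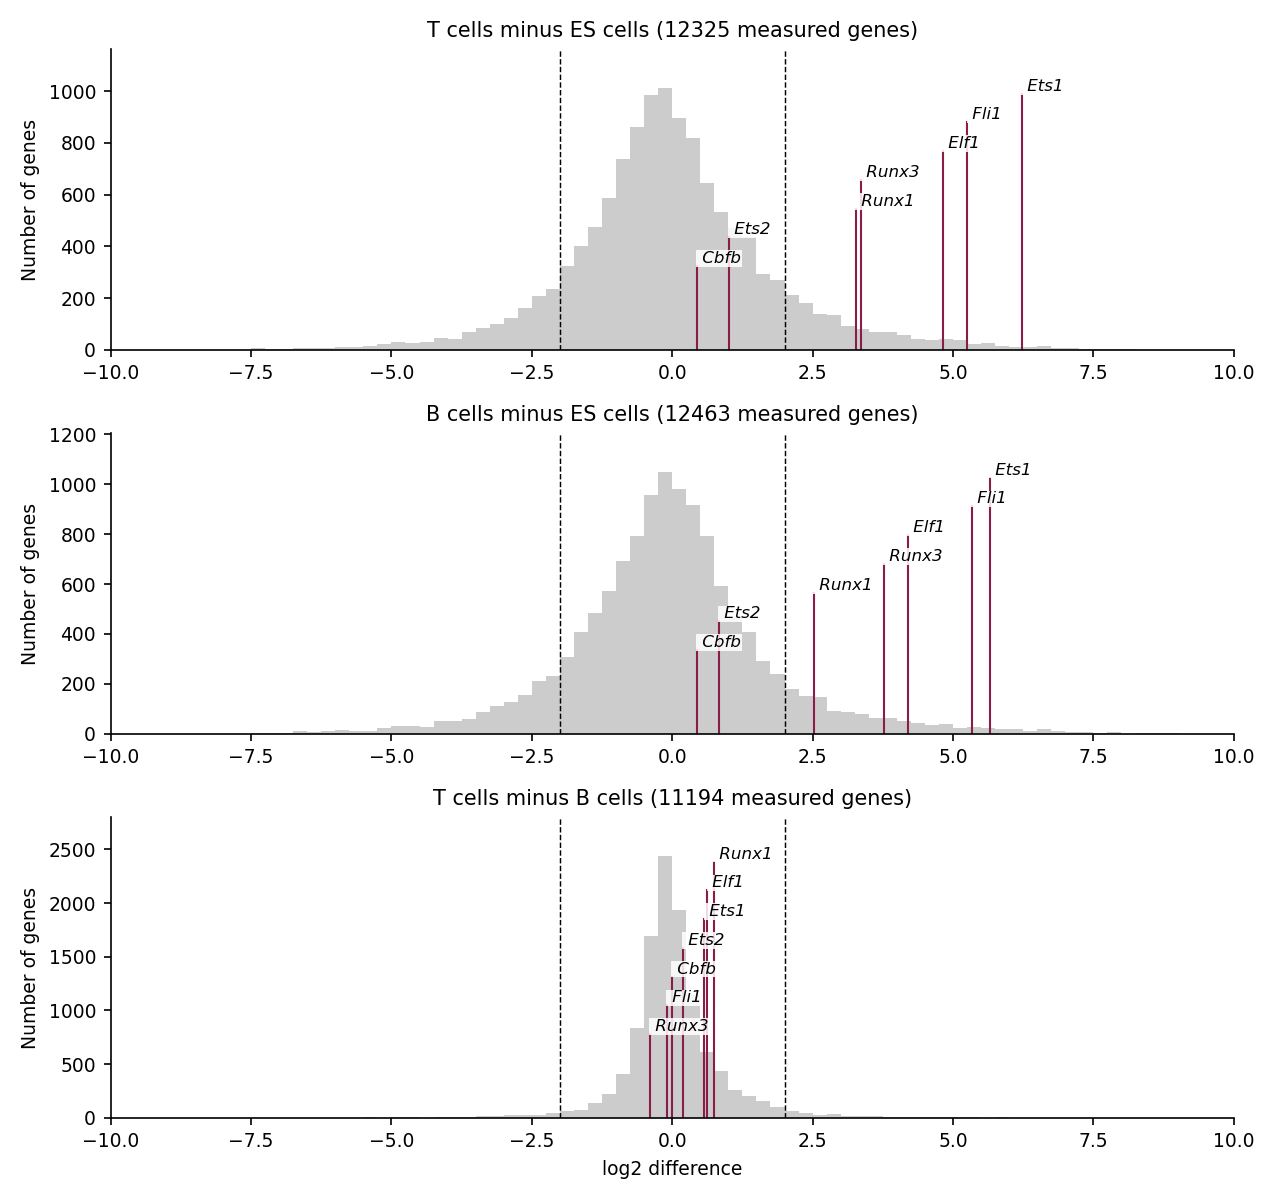
Number of measured genes by log2 difference for T cells minus ES cells, B cells minus ES cells and T cells minus B cells from top to bottom, with the 7 members marked by red lines of arbitrary height. The dashed lines are 4-fold. The same 5 members lie beyond the right dashed line in the upper panels, and all 7 lie between the dashed lines at the bottom.

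The remaining ETS family gives the setting for the 4 members. Of 22 listed family genes 20 had a probe set, and Erg, Elf5, Ehf and Spdef were not detected on any array by the probe set that stands for them. In T cells against ES cells 4 of 16 measured genes were counted higher and 4 lower, beside 10.8% and 10.2% of all genes. The median of the log2 differences was 0.37, against -0.11 over all genes. In B cells 5 of 16 were higher and 4 lower, beside 9.85% and 10.3% of all genes, with a median of 0.45 against -0.07. In T cells 7 of the 16, and in B cells 6 of the 16, were undetected on an array of the comparison, which fixed their direction. Spib, Spic and Spi1 were undetected in ES cells and could only be higher, and Etv4 was undetected in both lymphocyte populations and could only be lower. Among genes detected on all arrays, Elk4 and Etv3 were counted higher and Etv5, Elf3 and Erf lower. The list thus held genes of both directions. The 4 members were picked as lymphocyte factors, so their common direction is not compared with it.

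The ETS genes counted as higher were Elk4, Etv3, Spic and Spib in T cells, and these and Spi1 in B cells. Elk4, a partner of serum response factor, had signals of 7281 in T cells, 6606 in B cells and 638 in ES cells, or 11.4-fold and 10.4-fold higher than in ES cells. Its probe sets ran between -0.42 and 3.51 on the log2 scale in T cells. Etv3 was 8.92-fold higher in T cells and 6.28-fold in B cells, with probe sets between 0 and 3.16 in T cells. Spib, a B lineage factor, had 683 in T cells, 9989 in B cells and 64.1 in ES cells. It was at least 105-fold above ES cells in B cells and 14.6-fold lower in T cells than in B cells. It was the 1 gene of 13 in the list that reached 4-fold between the lymphocytes, where 2.49% of all genes were higher in T cells and 1.85% lower. Of 7 B cell markers, 6 were detected in T cells, with a sum of 5017 against 100618 in B cells. The part of B cells in the T cell signal of Spib was not tested. Spi1, which encodes PU.1 of myeloid and B cells, had 339 in T cells, 974 in B cells and 54.5 in ES cells. It was at least 3.57-fold above ES cells in T cells, which did not reach 4-fold, and at least 10.3-fold in B cells. Spic, known from red pulp macrophages of the spleen, had 2941 in T cells, 1235 in B cells and 24.6 in ES cells, beside macrophage marker sums of 60646, 24893 and 3981. The part of macrophages in the Spic signal was not tested.

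The lower ETS genes were Etv4, Etv5, Elf3 and Erf. Etv5, which is induced by fibroblast growth factor signals, had 385 in T cells, 175 in B cells and 5465 in ES cells, or 14.2-fold and 31.3-fold lower than in ES cells. Etv4 was undetected in both lymphocyte populations and had 742 in ES cells, at least 7.81-fold lower in each. Its 2 probe sets ran between -2.96 and -0.51 on the log2 scale in both. Elf3, an epithelial factor, was 7.89-fold lower in T cells and 5.99-fold lower in B cells. Erf, a repressor of the family, was 4.19-fold and 5.86-fold lower, with a second probe set undetected throughout at a difference of 0.

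**Figure D4:**
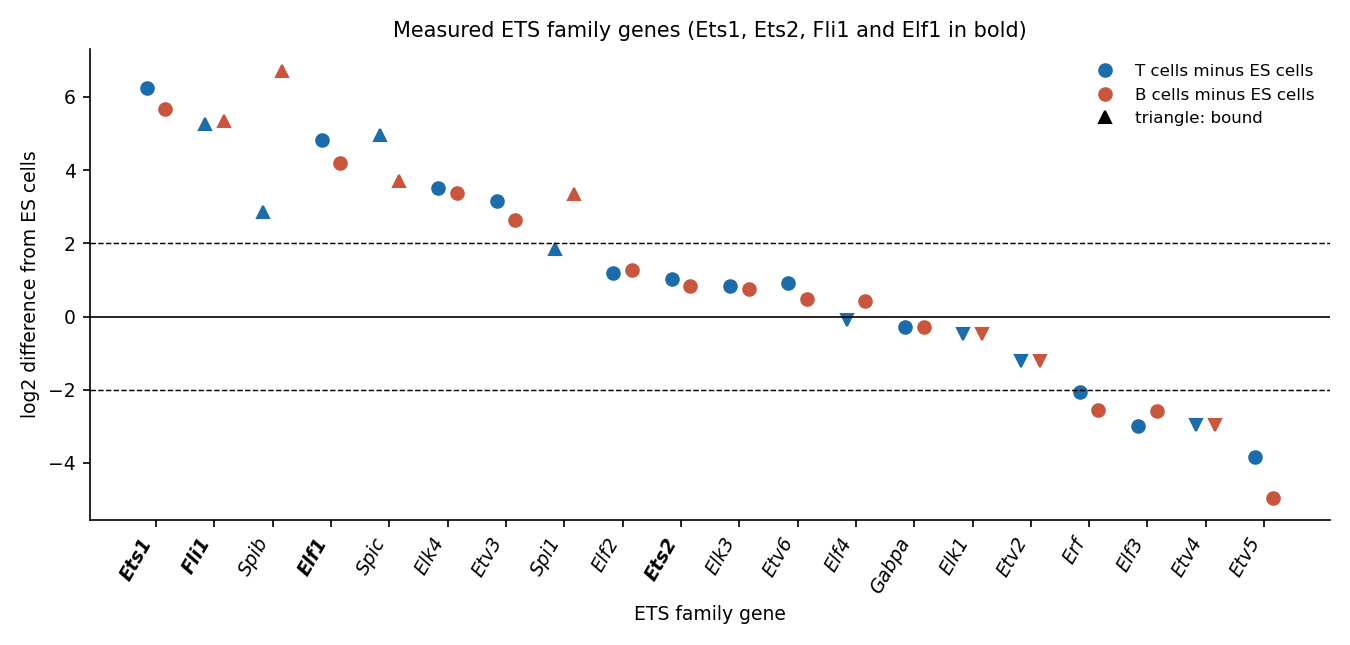
Difference from ES cells on the log2 scale for each measured ETS family gene, T cells in blue and B cells in red, ordered by the mean of the 2. Triangles are bounds and dashed lines are 4-fold. Ets1, Fli1 and Elf1 stand at the upper end with Spib and Spic, Ets2 lies near the middle, and Etv5 is at the lower end.

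Cofactors of the Runt proteins were 14 measured genes. T cells against ES cells had 2 counted higher and 1 lower, beside 10.8% and 10.2% of all genes, and B cells had 1 higher and 2 lower, beside 9.85% and 10.3%. These counts are near the background. The medians of the log2 differences were -0.39 and 0.14. Cbfa2t3, a corepressor of the ETO family, had 568 in T cells, 1072 in B cells and 10.6 in ES cells, at least 5.98-fold and 11.3-fold higher. It was undetected in ES cells, so it could only be higher in these counts. Tle5, a short Groucho relative, was 4.72-fold higher in T cells and stood at 1.53 on the log2 scale in B cells. Prmt1, an arginine methyltransferase that modifies Runx1, had 2954 in T cells, 3374 in B cells and 15180 in ES cells. It was 5.14-fold lower in T cells and 4.50-fold in B cells. Prmt6 was 4.23-fold lower in B cells, although its probe sets ran between -2.08 and 1.26. Between T cells and B cells 0 of 13 reached 4-fold, and Ep300, a histone acetyltransferase, was 2.08-fold lower in T cells.

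Partners of ETS proteins included Sp100, a nuclear body protein that binds Ets1. Sp100 had 1366 in T cells, 2429 in B cells and 53.3 in ES cells, at least 14.4-fold and 25.6-fold higher than in ES cells. Pax5, which recruits Ets1 to the Cd79a promoter, was detected in B cells alone, at 584, and was at least 6.15-fold higher there than in ES cells. Gabpb2, a subunit that pairs with the ETS protein Gabpa, was 3.32-fold higher in T cells and 3.98-fold in B cells. Its probe sets ran between -0.57 and 2.60 on the log2 scale in T cells and between 0.05 and 2.89 in B cells. Gabpb1, of the same list, was 2.10-fold lower in T cells and 1.84-fold in B cells. In all, 1 of 5 measured partners was counted higher in T cells and 2 of 6 in B cells, with 0 counted lower in either. The counted genes were Sp100 in both and Pax5 in B cells. Sp100 and Pax5 were undetected in ES cells, so where measured they could only be higher. Over all genes the T cell shares were 10.8% higher and 10.2% lower, and the B cell shares 9.85% and 10.3%.

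Some blood stem cell factors that act with Runx1 and Fli1 differed between the lymphocytes. Lmo2, a LIM domain bridging protein, had 644 in T cells, 7428 in B cells and 99.5 in ES cells. Lyl1, a basic helix-loop-helix factor, had 235 in T cells, 3545 in B cells and 105 in ES cells. Both were thus brightest in B cells, and Lmo2 was 11.5-fold and Lyl1 15.1-fold lower in T cells than in B cells. These were 2 of 6 measured genes, beside 1.85% of all genes, and 0 of 6 were counted as higher in T cells. Tal1 was undetected on all 3 arrays. Relative to ES cells, Gata2 was 2.37-fold lower in T cells and 2.12-fold in B cells.

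Genes described elsewhere as Runx targets in blood were set beside the factors. Of 17 listed, T cells against ES cells had 7 of 13 measured genes counted higher and 0 lower, and B cells 3 of 8 higher and 0 lower. Of these, 10 of the 13 and 5 of the 8 were undetected in ES cells, and such genes could only be higher. The shares over all genes were 10.8% higher and 10.2% lower in T cells, and 9.85% and 10.3% in B cells. Il7r, the interleukin-7 receptor gene, had 12791 in T cells, 233 in B cells and 49.9 in ES cells. Satb1 had 10988 in T cells, 4113 in B cells and 115 in ES cells, with probe sets between 1.98 and 6.58 on the log2 scale in T cells. Cd4 had 834 in T cells, 19.7 in B cells and 11 in ES cells. As the T cells were sorted for CD4, the counting of Cd4 as higher in T cells is not independent of the sort. Cd8b1, a CD8 chain gene, had 716 in T cells, 166 in B cells and 11.6 in ES cells, in a population sorted for CD4. Csf1r, the macrophage growth factor receptor gene, had 19275 in T cells, 8930 in B cells and 209 in ES cells, and is itself on the macrophage list given above. Between T cells and B cells 13 were measured, of which 5 were undetected in B cells and could only be higher in T cells. Counted higher in T cells were 5 of the 13, Cd4 and Itgae of the undetected ones included, beside 2.49% of all genes. Among them were Ifng at 9.06-fold and Itgae, an integrin gene, at no less than 4.73-fold by its brighter probe set. The 2 Itgae probe sets ran between 0.90 and 2.24 on the log2 scale. The count of 5 became 2 with a detection level at the 65th percentile and 3 by the smallest difference among all probe sets.

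Genes described elsewhere as Ets targets were read in the same way. Il2rb had 1133 in T cells, 77.6 in B cells and 8.5 in ES cells, and Il2ra 468, 39.8 and 3.8 in the same order. Cd79a, a B cell receptor chain gene, had 197 in T cells, 4394 in B cells and 41.2 in ES cells, and is itself on the B cell marker list. Stat4 was 10.7-fold higher in T cells and 6.01-fold in B cells than in ES cells. Against ES cells, 3 of 8 measured genes were counted higher in T cells and 4 of 7 in B cells, with 0 lower. The 4 in B cells were Cd79a, Stat4, Lyl1 and Pf4. Lyl1 is also among the blood stem cell factors above, and Pf4 is on the platelet list. The shares of all genes counted higher were 10.8% and 9.85%, and those counted lower 10.2% and 10.3%, as given above. Il2ra, Il2rb and Cd79a were undetected in ES cells, so where measured they could only be higher. Between T cells and B cells 2 of 8 were higher, 2 lower and 4 within 4-fold, beside 2.49% and 1.85% of all genes. The 2 higher were Il2ra and Il2rb, which were undetected in B cells and could only be higher in T cells. Of 5 skeletal genes described as Runx2 targets that had a probe set, 3 were measured against ES cells. In each lymphocyte population 0 of the 3 were counted higher and 1 lower, beside the same shares of all genes. The 1 was Alpl, the alkaline phosphatase gene, with 68.1 in T cells, 98 in B cells and 547 in ES cells. It was undetected in T cells and could only be lower there, and Runx2 itself was not measured.

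The genes most like the 5 members that reached 4-fold were found by the distance between log2 profiles, each centred on its mean over the 3 arrays, among 12172 other detected genes. With 3 points per profile, such likeness is a description. ES cell signals below 95 were raised to that level, so a distance or rank that rests on one depends on the level chosen. This holds for all distances of Fli1 and Runx3, and for those of Ets1 and Elf1 to the undetected genes named here. Nearest to Ets1 was Ccr7, the homing receptor gene of lymph nodes, at a distance of 0.07, followed by Ifi213 at 0.19 and Arhgap45 at 0.19. Ccr7 had 7342 in T cells, 4620 in B cells and 6.9 in ES cells, so its folds over ES cells are bounds, and Ifi213 and Arhgap45 were undetected there too at 12.3 and 55. Nearest to Fli1 were Nfatc1 and Gimap7, each at 0.15, and Traf3ip3 at 0.16. Elf1 was followed by Wipf1, Cfp and Smarca2, each at 0.10, the last with 93.2 in ES cells. Runx1 was followed by Arsb at 0.0049, Chaserr at 0.06 and Ifngr1, the interferon gamma receptor gene, at 0.06, and Runx3 by Snx20 at 0.03, Gsdmd at 0.07 and Trim5 at 0.08. Among the members themselves the closest pair was Cbfb and Ets2 at 0.41, then Ets1 and Fli1 at 0.71, and the farthest was Cbfb and Ets1 at 4.51.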

How the data were processed

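The deposited table holds linear intensity values of 45037 probe sets on 3 arrays. Affymetrix Expression Console made them, per the submitters' processing notes. The sources used here do not give its version, the summarization, the background treatment, the scaling or any centring of probe sets. The 2% trimmed means of the columns were 497.7 in T cells, 497.8 in B cells and 497.3 in ES cells, as after scaling to a common mean, so a general change of mRNA content cannot be seen. Trizol was used to isolate total RNA and biotin to label it, per the labels' protocols.

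Probe sets were named through GEO's array annotation. Of them 34945 had 1 symbol, 932 several and 9160 none, and 34741 Entrez IDs were found in a GRCm38.p6 RefSeq table, with 0 symbols changed. Of several probe sets of a gene, the one brightest on average stood for it. It was measured where 1 of the 2 arrays was above 95, and counted at a 4-fold difference with the brighter array above 95. With 1 array a group, nothing was tested, and precision is limited by the number of arrays. The named genes were all member probe sets, up to 4 measured genes per list and comparison with the greatest absolute difference, members at least 4-fold against their list's median, and the 3 nearest profiles of each member at least 4-fold different. Some further list genes were named after their values were seen, to give the detected and undetected ones. The members and lists were chosen with earlier results of these data known. The call rule was tested on simulated data, with planted changes larger than 4-fold in bright genes only. How well it finds changes near 4-fold or signals near 95 was not tested. Python 3.11.15, pandas 2.3.3 and numpy 2.4.6 were used. Other settings (7, and 1 chosen after seeing the data) are given in the closing section.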

Additional observations from a re-analysis of the deposited data

How the results depend on the processing

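No paired analysis was possible because each population had 1 array, and no replicate could be left out. Counts of the 7 members were recomputed under 8 alternatives, of which the last, the smallest difference among detected probe sets, was chosen after seeing the data. Of 48 such counts 3 moved by over 1.5 times. With the smallest difference among all probe sets of a gene, 3 members in place of 5 were higher in T cells and 3 in place of 5 in B cells than in ES cells, since Runx1 has probe sets under 4-fold and Runx3 an undetected one. With the mean log2 over all probe sets, 3 members in place of 5 were higher in B cells. Ets1, Fli1 and Elf1 were counted in both comparisons under all 8 alternatives. No difference from ES cells was below 0 under any of them, and those of Runx3 and Ets2 were 0 by the smallest difference among probe sets. Of 168 member differences 47, and of 336 list counts 65, moved by more than the spread or by over 1.5 times. Over all genes, T cells against ES cells gave 1332 higher and 1252 lower genes, and 770 and 664 by the smallest difference among probe sets, 866 and 825 by the smallest among detected ones, 2802 and 3041 at 2-fold, and 784 lower with a detection level at the 65th percentile. B cells against ES cells gave 1227 and 1289, and 739 and 679, 831 and 846, 2635 and 3063, and 799 lower under the same settings. T cells against B cells gave 279 and 207, and 151 and 141, 177 and 162, 995 and 707, and 166 higher at the 65th percentile. Scaling to the 75th percentile put the higher genes at 38.6% of those counted in place of 51.5% in T cells and at 37.4% in place of 48.8% in B cells, while the same 5 members were counted. Quantile normalization moved the median of all genes by -0.15 in both. Fli1 and Runx3 were undetected in ES cells, so their folds are bounds.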

Other observations

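Ets1 and Fli1 are neighbouring protein-coding genes on chromosome 9 in the RefSeq table, and both were far above their ES cell level in both lymphocyte populations. The genes flanking the pair, Kirrel3 and Kcnj1, were undetected on all 3 arrays, with T cell signals of 31.2 and 7.1, B cell signals of 16.1 and 50, and ES cell signals of 32 and 8.4. Runx1, on chromosome 16, lies between Setd4 and Clic6. Setd4 had signals of 763 in T cells, 325 in B cells and 458 in ES cells, and Clic6 138, 44.7 and 37 in the same order. Runx3, on chromosome 4, lies between Syf2 and Clic4. The log2 difference from ES cells was 1.71 for Syf2 and -1.42 for Clic4 in T cells, and 1.51 and -0.31 for B cells. Elf1, on chromosome 14, lies between Wbp4 and Sugt1, with log2 differences from ES cells in T cells of -0.25 and -0.74, and in B cells of -0.05 and -1.24. Ets2, on chromosome 16, lies between Erg, which was undetected on all 3 arrays, and Psmg1, with 1624 in T cells, 1062 in B cells and 5119 in ES cells. Cbfb, on chromosome 8, lies between Ces4a and D230025D16Rik, whose log2 differences from ES cells were 0 and -1.63 in T cells and 0.43 and -1.36 in B cells. Psmg1, at -1.66 in T cells and -2.27 in B cells, was lower by over 4-fold in B cells. The other flanking genes named here did not reach 4-fold in either comparison with ES cells. These values are descriptions of 3 arrays.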
